A study of Arabidopsis thaliana with 39 samples.

Results

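Small RNA reads whose bases differ from the plasmid they map to made up 3973 of 28781 small RNA reads listed for a pair of Arabidopsis thaliana T-DNA insertion lines. They were chosen by comparing every read, turned into the orientation of the RNA, with the plasmid bases at its listed first and last position, and a read belonged to them if it differed in at least 1 base. Of the SALK_059379 library, mapped to plasmid pROK2, 3649 of 25606 reads differed (14.3%, 95% interval 13.8 to 14.7). Of the SAIL_232 library, mapped to plasmid pCSA110, 324 of 3175 differed (10.2%, 9.17 to 11.3). With identical reads counted once, the shares were 22.9% and 14.1%, and among reads of 21 to 24 nt alone they were 11.3% and 5.94%. The differing bases thus chose the reads and are given as a description, and the exact reads of the same library (21957 and 2851) are the reference. Each range in parentheses after a share is an exact 95% Clopper-Pearson interval and covers counting error alone. The reads carry no molecular identifiers. With 1 small RNA library per line, differences between the libraries could not be set against a spread of replicates.

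The study sequenced T-DNA insertions of Arabidopsis lines and the RNA and chromatin that belong to them. SALK_059379 carries the T-DNA of pROK2, with the kanamycin resistance gene nptII and a 35S promoter between copies of the NOS terminator (NOSt). SAIL_232 carries the T-DNA of pCSA110, with the herbicide resistance gene bar behind a mannopine synthase promoter, and the reporter gene GUS behind the pollen promoter of LAT52. SALK_059379 is in the Col-0 accession and SAIL_232 in Col-3. Small RNAs came from rosette leaves of pooled plants that segregate for the insertions, grown at 21 °C with 16 h of light per the labels, while the methods give other growth conditions. A pool can mix plants with different insertion copies, and its reads cannot be assigned to an insertion. No small RNA library of a line without T-DNA was analysed here.

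Plants cut double-stranded RNA of silenced transgenes into small interfering RNAs (siRNAs) with Dicer-like enzymes. DCL4, DCL2 and DCL3 are known for products of 21, 22 and 24 nt, and the 24 nt class directs DNA methylation. In Arabidopsis the methyltransferase HEN1 methylates the 3′ end of siRNAs, and the nucleotidyl transferases HESO1 and URT1 add U to ends that lack this methyl group. RDR2, the RNA polymerase that makes the double strand for DCL3, is known to add a base without a template to the 3′ end of its product.

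The differing reads fell into 4 classes by where the change lay. In SALK_059379, 1506 reads had all changes in a run of up to 3 bases that ended at the last base (41.3% of the differing reads, 39.7 to 42.9), 724 had them in such a run from the first base (19.8%, 18.6 to 21.2), 1396 had 1 change inside the read (38.3%, 36.7 to 39.9), and 23 had any other pattern. In SAIL_232 the 3′ class held 162 of 324 reads (50.0%, 44.4 to 55.6), the 5′ class 25, the class with 1 internal change 65 and the last class 72. The 3′ class was 5.88% of all reads in SALK_059379 (5.60 to 6.18) and 5.10% in SAIL_232 (4.36 to 5.93), with overlapping intervals. The 5′ class was 2.83% (2.63 to 3.04) and 0.787% (0.510 to 1.16), which do not. Of the 1071 distinct 3′ changed reads of SALK_059379, 798 were seen once (74.5%, 71.8 to 77.1), as were 105 of the 128 of SAIL_232 (82.0%, 74.3 to 88.3). Most distinct exact reads were also seen once, 58.5% in SALK_059379 (57.4 to 59.6) and 67.7% in SAIL_232 (65.3 to 69.9). The most copies that a 3′ changed read reached were 15 and 4, against 473 and 64 for an exact read.

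Changes were concentrated at the ends. At the last base, 5.93% of the SALK_059379 reads with at most 3 changes differed from the plasmid (5.65 to 6.23), at the second base from the end 0.879% (0.768 to 1.00) and at the third 0.137% (0.0953 to 0.190). In SAIL_232 the same positions gave 5.18% (4.42 to 6.01), 1.22% (0.863 to 1.67) and 0.513% (0.293 to 0.831). Between the first base and the last 3 bases, the rate per base was 0.111% in SALK_059379 (535 changes in 484211 bases) and 0.109% in SAIL_232 (74 in 67745). Both leave out the plasmid positions at which at least 20 reads and at least 50% of the covering reads carry the same other base. Positions that miss this rule, such as T1431A in SAIL_232 (19 of 27 reads), were not left out. The inner rates of the libraries overlapped within counting error.

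The base at a changed 3′ end was U in most reads of either library. Of the 1402 SALK_059379 reads in which the last base alone was changed, 858 ended in U (61.2%, 58.6 to 63.8), 265 in A (18.9%, 16.9 to 21.1), 257 in C (18.3%, 16.3 to 20.5) and 22 in G (1.57%, 0.986 to 2.37). Of the 141 of SAIL_232, 85 ended in U (60.3%, 51.7 to 68.4), 26 in A (18.4%, 12.4 to 25.8), 24 in C (17.02%, 11.2 to 24.3) and 6 in G (4.26%, 1.58 to 9.03). The order of the bases was the same in both, with A and C overlapping in their intervals. At the first base the makeup was another. Of the 723 single first-base changes of SALK_059379, 409 were to G and 260 to U, whereas 12 of the 24 of SAIL_232 were an unread base (N).

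A changed last base shows only where it differs from the plasmid, so the rate was also taken over the reads in which each base could be seen. Whether such a base was added to the RNA, or stands for a substituted or misread base, was not tested. In SALK_059379, U stood at the end of 4.60% of the 20817 reads whose plasmid base there was not U (4.32 to 4.90), C of 2.37% of those without plasmid C (2.10 to 2.67), A of 1.19% of those without plasmid A (1.05 to 1.34) and G of 0.105% (0.0666 to 0.158). On this scale C was above A. In SAIL_232 the rates were 4.86% for U (4.00 to 5.84), 1.67% for C (1.11 to 2.41), 1.00% for A (0.666 to 1.44) and 0.297% for G (0.128 to 0.584). U was thus the most frequent changed end by either measure in both libraries.

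The rate at the last base depended on the plasmid base that the changed base replaced. In SALK_059379, U stood in place of a plasmid A in 14.0% of 2789 reads (12.8 to 15.4), of a G in 7.75% of 3703 (6.91 to 8.66) and of a C in 1.95% of 14325 (1.73 to 2.20). A stood in place of G in 4.35% of reads (3.71 to 5.06), of U in 0.961% (0.705 to 1.28) and of C in 0.447% (0.344 to 0.570). In SAIL_232, U stood in place of A in 10.1% of 326 reads (7.07 to 13.9), of G in 10.3% of 428 (7.57 to 13.5) and of C in 2.07% of 1450 (1.40 to 2.94). A did not show the same dependence there, since it stood in place of G in 5 of 428 reads (1.17%, 0.380 to 2.71), of C in 16 of 1450 (1.10%, 0.632 to 1.79) and of U in 7 of 921 (0.760%, 0.306 to 1.56), with overlapping intervals. Reads with a plasmid C at the end thus had the lowest rate of U in both libraries, and these are also the most frequent exact ends, since C was the last base of 57.2% of the exact reads of SALK_059379 (56.6 to 57.9) and of 47.8% of SAIL_232 (45.9 to 49.6). C makes up 27.2% of the bases of pROK2 over both strands and 24.3% of pCSA110.

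Once the changed base was taken off, the ends of the 3′ changed reads came closer to those of exact reads. The plasmid base under the changed base was C in 23.3% of the 1402 SALK_059379 reads (21.1 to 25.6), and the base before it was C in 54.1% (51.5 to 56.8), near the 57.2% at the last base of exact reads. A was rare before the change (3.64%, 2.72 to 4.76) as it was at the last base of exact reads (9.57%, 9.18 to 9.97), while G was more frequent before the change (29.2%, 26.8 to 31.6) than at that base (13.5%, 13.0 to 13.9). In SAIL_232, C stood before the change in 48.2% of reads (39.7 to 56.8) and under it in 26.95% (19.8 to 35.1).

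Longer changed ends were mostly U-rich. In SALK_059379 the 3′ class held 1402 reads with 1 changed base, 101 with 2 and 3 with 3. The frequent ends of 2 bases were UU (47 reads), CU (29) and GU (7), and UUU occurred in 2 reads. In SAIL_232, 20 reads had 2 changed bases at the end, 13 of them UU. A changed pair whose last base happens to equal the plasmid would look like a change at the second base from the end, so reads with their first change at that base were also counted in one group. Of the 216 SALK_059379 reads whose first change lay at that base, 96 ended in UU (44.4%, 37.7 to 51.3) and 55 in CU (25.5%, 19.8 to 31.8). Of these 216 reads, 84 were 26 nt long (38.9%, 32.4 to 45.7). Of the 33 such reads of SAIL_232, 15 ended in UU and 4 were 26 nt long.

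The 3′ changed reads were longer than the exact reads. In SALK_059379, 92.1% of exact reads were 21 to 24 nt long (91.8 to 92.5), against 46.1% of the 3′ class (43.5 to 48.6), 90.5% of the 5′ class (88.1 to 92.5) and 87.6% of the reads with 1 internal change (85.8 to 89.3). Of the reads of 24 nt, 239 of 10076 were 3′ changed (2.37%, 2.08 to 2.69), of those of 25 nt 401 of 879 (45.6%, 42.3 to 48.98) and of those of 26 nt 139 of 242 (57.4%, 50.9 to 63.7). The share was also higher at 23 nt (9.37%, 8.21 to 10.6) than at 22 nt (3.02%, 2.61 to 3.49) and at 21 nt (1.33%, 1.02 to 1.72). In reads of 27 to 35 nt, which were few, it lay between 30% and 42.3%. In SAIL_232 the shares were 1.07% at 21 nt (8 of 750), 5.99% at 22 nt (16 of 267), 10.3% at 23 nt (17 of 165), 2.24% at 24 nt (9 of 401) and 16.0% at 25 nt (15 of 94, 9.21 to 24.9). Both libraries thus had minima at 21 and 24 nt and higher shares at 23 and 25 nt. The SAIL_232 library holds more long reads in all, with 22.9% of its exact reads at 30 nt or longer against 0.979% in SALK_059379, and 38.9% of its 3′ class (31.3 to 46.8).

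Without the changed bases, the lengths of the 3′ class of SALK_059379 came closer to those of exact reads but did not match them. The unchanged part was 21 to 24 nt long in 1083 of 1506 reads (71.9%, 69.6 to 74.2), between the 46.1% of the whole reads and the 92.1% of exact reads. The unchanged part was 24 nt long in 437 of 1506 reads (29.0%, 26.7 to 31.4), 23 nt in 242, 22 nt in 222 and 21 nt in 182, where exact reads had 39.4%, 8.66%, 25.2% and 18.8%. Parts of 23 nt were thus more frequent than those of 21 nt. Their share overlapped that of 22 nt within counting error (14.25 to 18.02 against 12.99 to 16.63). Among exact reads, 23 nt was less frequent than either. Reads with a changed end were 4.80% of those with an unchanged part of 24 nt (437 of 9097, 4.37 to 5.26), 3.85% at 22 nt (3.37 to 4.38), 4.23% at 21 nt (3.65 to 4.87), 11.3% at 23 nt (9.98 to 12.7) and 19.2% at 25 nt (15.9 to 22.9). The shares at 21, 22 and 24 nt, the lengths known for DCL4, DCL2 and DCL3, thus lay between 3.85% and 4.80%, and those at 23 and 25 nt were higher. Which enzyme made a read was not tested. In SAIL_232 the shares were 2.17% at 21 nt (1.25 to 3.50), 6.84% at 22 nt (4.11 to 10.6), 5.92% at 23 nt (2.74 to 10.9) and 4.28% at 24 nt (2.51 to 6.77), of which only those at 21 and 22 nt have intervals that do not overlap.

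The changed last base of SALK_059379 varied with the length of the unchanged part. A stood alone after an unchanged part of 22 nt in 84 of 214 reads (39.3%, 32.7 to 46.1), after 24 nt in 79 of 390 (20.3%, 16.4 to 24.6), after 21 nt in 31 of 182 (17.03%, 11.9 to 23.3) and after 23 nt in 29 of 231 (12.6%, 8.57 to 17.5). U stood after 121 of 182 parts of 21 nt (66.5%, 59.1 to 73.3), 93 of 214 of 22 nt (43.5%, 36.7 to 50.4), 143 of 231 of 23 nt (61.9%, 55.3 to 68.2), 204 of 390 of 24 nt (52.3%, 47.2 to 57.4) and 77 of 92 of 25 nt (83.7%, 74.5 to 90.6). The 22 nt class was the one in which A and U were about as frequent as each other, and its 84 reads with A were 67 distinct sequences. In SAIL_232, 7 of 17 parts of 22 nt had U and 5 had A, and 14 of 16 parts of 21 nt had U (87.5%, 61.7 to 98.4). None of the 8 parts of 23 nt had U, which allows a share of up to 36.9%. These SAIL_232 counts are too few to order the lengths by A.

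An exact read that equals the unchanged part was listed for 503 of the 1506 3′ changed reads of SALK_059379 (33.4%, 31.0 to 35.9) and for 24 of the 162 of SAIL_232 (14.8%, 9.73 to 21.2). An exact read of any length with the same 5′ end was listed for 66.3% (63.9 to 68.7) and 58.6% (50.7 to 66.3). The most frequent exact reads of SALK_059379 had few such partners with a changed end. The read of 21 nt at positions 9899 to 9919 of nptII (473 copies), that of 22 nt at 9898 to 9919 (405), that of 24 nt at 1622 to 1645 of the backbone (220), that of 22 nt at 9493 to 9514 (200) and that of 24 nt at 9896 to 9919 (152) had none with a changed end. The 10 most frequent exact reads of SALK_059379, 2038 reads in all, had 4 such partners (0.196%, 0.0534 to 0.501). In SAIL_232 the most frequent exact read, of 21 nt at 312 to 332 (64 copies), had 2, and the 10 most frequent together, 306 reads, had the same 2 (0.649%, 0.0787 to 2.33), an interval that holds the value of exact reads listed once.

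In SALK_059379 the share of 3′ changed partners was lower at exact reads with more copies. It was 3.63% for exact reads listed once (168 changed reads beside 4465 exact, 3.11 to 4.20), 2.87% at 2 to 9 copies (2.54 to 3.24), 1.19% at 10 to 49 copies (0.906 to 1.53) and 0.302% at 50 or more (11 beside 3637, 0.151 to 0.539). SAIL_232 did not show this series, with 0.996% at 1 copy (0.498 to 1.77), 0.792% at 2 to 9 copies (0.396 to 1.41), 0% of 252 reads at 10 to 49 (up to 1.45) and 1.55% at 50 or more (2 beside 127, 0.188 to 5.49). In SALK_059379, exact reads longer by 1 base at the 3′ end also became fewer along the same series, from 34.2% (33.1 to 35.4) to 21.0%, 8.66% and 1.84% (1.43 to 2.32). Changes elsewhere in the read did not follow this series. Reads with 1 changed first base, set beside the exact reads of the same place, were 1.93% (1.55 to 2.38), 2.63% (2.32 to 2.98), 2.81% (2.38 to 3.31) and 2.41% (1.95 to 2.96) at these copy numbers. Reads with 1 internal change were 1.74% (1.38 to 2.16), 1.66%, 2.00% and 1.73% (1.33 to 2.20). A change of the last base alone, counted in the same way, was 1.72% (1.36 to 2.14), 1.84% (1.58 to 2.14), 0.507% (0.328 to 0.748) and 0.137% (0.0446 to 0.320). In this library the share of changed last bases was thus lower where an exact read had 10 or more copies, whereas the other classes stayed between 1.66% and 2.81%. The exact copies both define these groups and enter the divisor of each share. The SALK_059379 group with 50 or more copies held 33 distinct exact reads, and copy number was not separated from element.

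The same difference showed in how many changed reads had an exact read at the same first and last position. In SALK_059379 these were 276 of the 1402 reads with a changed last base (19.7%, 17.6 to 21.9), 562 of the 723 with a changed first base (77.7%, 74.5 to 80.7) and 394 of the 667 with 1 internal change outside the recurrent position described below (59.1%, 55.2 to 62.8). In SAIL_232 they were 10 of 141 (7.09%, 3.45 to 12.7), 15 of 24 (62.5%, 40.6 to 81.2) and 14 of 65 (21.5%, 12.3 to 33.5). In both libraries the reads with a changed last base had the lowest share, though in SAIL_232 its interval overlapped that of reads with 1 internal change.

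Neither the first base nor the strand of the RNA was used to choose reads with a changed 3′ end. Argonaute proteins of plants bind small RNAs by their first base, with AGO1 known for U and AGO4 for A. In SALK_059379, 29.3% of the 3′ class began with G (26.99 to 31.7) against 16.5% of exact reads (16.0 to 16.96), and 22.9% with U (20.8 to 25.1) against 29.5% (28.9 to 30.1). With identical reads counted once, G began 28.9% (26.2 to 31.8) against 21.1% (20.2 to 22.02), and U 23.1% (20.6 to 25.7) against 25.1% (24.1 to 26.1), so that the intervals for U then overlapped. In SAIL_232, G began 23.5% of the 3′ class (17.2 to 30.8) and 20.7% of exact reads (19.2 to 22.2). The plus strand of the plasmid held 52.6% of the 3′ class of SALK_059379 (50.0 to 55.1) and 54.7% of exact reads (54.1 to 55.4), and in SAIL_232 67.9% (60.1 to 75.0) and 71.8% (70.1 to 73.4).

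Changes at the first base differed between the libraries in rate and kind. The first base was changed in 2.85% of SALK_059379 reads (2.65 to 3.06) and in 0.768% of SAIL_232 reads (0.493 to 1.14). In SALK_059379, U stood in place of a plasmid G in 252 of 5135 reads (4.91%, 4.33 to 5.53), and G stood in place of U in 175 of 7203 (2.43%, 2.09 to 2.81), of C in 110 of 5926 (1.86%, 1.53 to 2.23) and of A in 124 of 7338 (1.69%, 1.41 to 2.01). The rate was 2.90% in reads of 21 nt, 2.82% at 22 nt, 2.76% at 23 nt and 2.90% at 24 nt, so the length classes were alike within counting error (lowest limit 2.13, highest 3.52). Reads of the 5′ class had a median length of 23 nt, as exact reads did. In SAIL_232, G replaced a first base in 1 read, and N stood in 12 reads. The libraries share neither line nor plasmid, so that line, plasmid and library cannot be told apart here.

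Inside the read, the changes of SALK_059379 lay preferentially at 3 positions counted from the 5′ end. The rate was 0.469% at position 5 (120 of 25599 reads, 0.389 to 0.560), 0.258% at position 9 (66 reads, 0.199 to 0.328) and 0.200% at position 18 (49 reads, 0.148 to 0.265), whereas the other positions from 2 to 21 had rates of 0.0234% to 0.113%. These positions were singled out after their values were seen. Among inner positions, position 5 had the highest rate in reads of 21 nt (0.520%), 22 nt (0.399%) and 24 nt (0.476%), and at 23 nt it was level with position 9 (8 of 2283 reads each, 0.350%). Within each of these lengths its interval overlapped that of position 9. Its frequent changes were A to G (28 reads), G to U (24) and U to G (19), which are also the frequent changes at the first base. At position 18 they were A to C (20) and C to A (13). In SAIL_232, position 5 had 2 changes in 3125 reads (0.0640%, 0.00775 to 0.231) and position 4 had 17 (0.544%, 0.317 to 0.870), so that the preferred positions were not shared. Over all inner positions, C to U (99 of 535 changes, 18.5%) and G to A (90, 16.8%) were the most frequent in SALK_059379, and C to U (21 of 74, 28.4%) in SAIL_232.

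A single position of pROK2 accounted for 732 of the 3649 differing reads of SALK_059379. At position 2018, in the vector backbone before the left border, every one of the 732 covering reads carried A where the deposited plasmid has C (C2018A, plus strand, lower limit of the share 99.5%). It was the only position of pROK2 at which at least 20 reads and at least 50% of the covering reads carried the same other base, among 7272 positions with at least 20 reads. Of the covering reads, 726 lay on the plus strand and 6 on the minus strand, and 633 were 24 nt long (86.5%, 83.8 to 88.9). The read of 24 nt at positions 2003 to 2026 made up 572 of them and was the most frequent differing read. With A at position 2018, 729 of the reads with 1 internal change and 2 of the 5′ class equalled the plasmid in every base. Of the 125 listed RNA-seq pieces of the same line, 1 covers this position, and it carries the A as well. The positions with the next highest shares were C275G (20 of 49 reads, 40.8%), G2732T (10 of 25) and T7746G (21 of 62, 33.9%). Of the 20 reads with C275G, 16 were copies of 1 minus-strand read of 26 nt (274 to 299), without which 4 of 33 reads carried it (12.1%, 3.40 to 28.2). Of the 21 with T7746G, 14 were copies of 1 read, without which it was 7 of 48 (14.6%, 6.07 to 27.8).

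In SAIL_232 the reads with many changes lay mainly behind bar. The 5 positions of pCSA110 that passed the same rule were neighbours, G1424C (42 of 49 reads, 85.7%), C1425G (33 of 38), T1426C (33 of 38), G1427T (32 of 38) and A1428G (24 of 30), among 918 positions with at least 20 reads. T1431A (19 of 27) lay just outside it. The deposited table writes reads without gaps, so a read with 1 base more than the plasmid is listed as a run of changes. SAIL_232 reads aligned with gaps allowed gave 5 differences from the deposited plasmid, of which 4 were used. These 4 lay in this stretch, namely T1380G, C1381A, an added T before position 1389 and an added C before position 1422. bar ends at position 1379, so that the first of these bases directly follows its open reading frame. With these differences put into the plasmid, 49 of the 72 reads of the last class, 8 of the 162 of the 3′ class and 1 of the 25 of the 5′ class equalled it, and 0 of the exact reads nearby, among 329 reads there, were lost. The differences were called from differing reads of this same library. That such reads then equalled the plasmid follows in part from this choice and is no separate support. The 9-base words around the first pair of differences were found in 7 and 9 reads in the changed form. The changed words around the added T (10 bases) and C (11 bases) were found in 8 and 25 reads. Each difference was found in 0 reads in the form of the deposited plasmid. The plasmid form was therefore not seen, although a count of 0 allows up to 3 reads. RNA-seq pieces of SAIL_232 could not be read here, since their median length is 2 bases and 68.5% of the 34770 pieces have under 4. Reads with 4 or more changes, 50 in SAIL_232 and 4 in SALK_059379, had up to 35 and 24 of them. Of those of SAIL_232, 6 lay at positions 1612 to 1751 and kept 4 changes on the changed plasmid when compared without gaps. Aligned to the deposited plasmid with gaps allowed, each of these 6 had 1 change.

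Along pROK2 the share of 3′ changed reads varied by element. It was 11.9% at the first NOSt copy (61 of 512 reads, 9.24 to 15.0), 10.7% at the second (62 of 577, 8.34 to 13.6), 8.19% between the second NOSt and nptII (73 of 891, 6.48 to 10.2), 7.75% between the left border and the first NOSt (123 of 1587, 6.48 to 9.18), 7.30% in the stretch with the NOS promoter (82 of 1123, 5.85 to 8.98), 6.02% in the backbone after the right border (119 of 1977, 5.01 to 7.16), 5.93% in the backbone before the left border (567 of 9557, 5.47 to 6.43), 5.81% in the stretch with the 35S promoter (285 of 4905, 5.17 to 6.50) and 3.01% in nptII (134 of 4458, 2.52 to 3.55). Over all copies nptII, which holds the most frequent exact reads, thus had the lowest share and the NOSt copies the highest. With identical reads counted once, the 3′ changed share of nptII was 9.52% (94 of 987 distinct reads, 7.77 to 11.5). It was above the 8.84% of the backbone after the right border (7.15 to 10.8). It was below the 10.8% of the backbone before the left border (9.86 to 11.9), with overlapping intervals. The NOSt copies then had 15.4% (11.2 to 20.2) and 15.2% (11.1 to 20.03). Their intervals overlapped those of nptII and of the backbone before the left border. They also overlapped those between the left border and the first NOSt (13.75%, 11.2 to 16.6) and between the second NOSt and nptII (11.8%, 8.97 to 15.15). The share of all differing reads in nptII was 7.83% over copies and 25.03% over distinct reads, against 19.0% and 23.3% in the backbone before the left border. The NOSt copies share their sequence, so that reads listed at either may stem from both. The borders held 15 and 4 reads, of which 4 and 1 differed and 0 were 3′ changed. Outside the borders, the 5′ class ranged from 1.56% at the first NOSt (0.677 to 3.06) to 4.99% in the stretch with the NOS promoter (3.79 to 6.43).

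U was the most frequent single changed last base at each of the 9 pROK2 elements that had any, from 50.0% of 112 reads in the backbone after the right border (40.4 to 59.6) to 75.9% of 116 reads between the left border and the first NOSt (67.0 to 83.3). The share of A ranged from 12.9% between the left border and the first NOSt (7.42 to 20.4) to 30.8% between the second NOSt and nptII (19.9 to 43.4). In nptII, which lies on the minus strand of the plasmid, 88 of 134 3′ changed reads were in the sense direction (65.7%, 57.0 to 73.7) against 39.2% of exact reads (37.7 to 40.7), 37.2% of the 5′ class (28.6 to 46.4) and 37.6% of reads with 1 internal change (27.8 to 48.3). With identical reads counted once, 64.9% of the 3′ class (54.4 to 74.5) and 58.6% of exact reads (55.0 to 62.2) were sense, so that the intervals then overlapped. The antisense excess of exact reads on nptII was thus seen over all copies and not over distinct reads.

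On pCSA110 the 3′ changed share was 3.58% in bar (47 of 1313 reads, 2.64 to 4.73), 4.58% in the stretch with the mannopine synthase promoter (31 of 677, 3.13 to 6.44), 7.64% in the stretch with pLAT52 (74 of 969, 6.04 to 9.49), 5% between GUS and the right border (5 of 100) and 5.17% in GUS (3 of 58). The stretch with pLAT52 is everything between bar and GUS (positions 1380 to 5150). It includes the differences directly behind bar, so its values are not those of the promoter alone. The plasmid before the left border had 43 reads, 2 of them 3′ changed, the left border 12 and the plasmid after the right border 3, with none, and the right border held 0 reads. In bar, 32 of 41 single changed last bases were U (78.0%, 62.4 to 89.4) and 2 were A (4.88%, 0.596 to 16.5). In the stretch with pLAT52, 32 of 65 were U (49.2%, 36.6 to 61.9) and 19 were A (29.2%, 18.6 to 41.8), with intervals apart from those of bar. This did not hold in every count. With identical reads counted once, U was 74.2% in bar (55.4 to 88.1) and 48.98% in the stretch (34.4 to 63.7), and A 6.45% (0.791 to 21.4) and 24.5% (13.3 to 38.9), with overlapping intervals for both. On the plasmid with the differences behind bar put in, U was 78.6% (63.2 to 89.7) and 56.5% (43.3 to 69.0), which overlap, and A 4.76% (0.582 to 16.2) and 30.6% (19.6 to 43.7), which do not. In bar, 40 of 47 3′ changed reads were sense (85.1%, 71.7 to 93.8), as were 88.6% of exact reads (86.7 to 90.3).

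After the read at position 2018, the most frequent differing reads of SALK_059379 were few. The next were reads over the same position, of 24 nt at 2012 to 2035 (28 copies, C7A, counted from the 5′ end of the RNA) and of 23 nt at 2001 to 2023 (22 copies, C18A). A minus-strand read of 26 nt at positions 274 to 299 had 16 copies and a change at the second base from its 3′ end (G25C), which is the read that carries most of C275G. A plus-strand read of 24 nt at 2296 to 2319 had 15 copies and a U at its end (A24U), beside 7 exact reads of the same place and 3 exact reads without the last base. It was the only 3′ changed read in this group. The most frequent differing reads of 21 and 22 nt were copies of the abundant nptII reads with a changed first base, at 9899 to 9919 (U1G, 15 copies beside 473 exact) and at 9898 to 9919 (U1G, 11 beside 405).

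In SAIL_232 the differing reads with the most copies, 4 each, were all 3′ changed and had no exact read at the same place. A plus-strand read of 24 nt at 510 to 533, in the stretch with the mannopine synthase promoter, ended in C (U24C, 4 copies). Reads of 33 nt at 3568 to 3600 (C33A) and, on the minus strand, of 32 nt at 4785 to 4816 (G32U), both in the stretch with pLAT52, had 4 copies each. At bar, a read of 36 nt at 827 to 862 ended in UU (C35U and G36U, 3 copies) and one of 45 nt at 1041 to 1085 in U (G45U, 3 copies). Reads of other classes also reached 3 copies. Among them were reads of the last class, of 36 nt, at 1392 to 1427 and at 1716 to 1751. The copies therefore did not set the bar reads apart from these. The most frequent of 21 nt (1440 to 1460, A21U), 22 nt (1431 to 1452, A22U) and 23 nt (2346 to 2368, C23A) had 2 copies each. The last base of the read of 22 nt lies at position 1431, so its change, read on the minus strand, has the same token as the T1431A named above. This read still differed in 1 base on the plasmid with the differences behind bar put in. Of the 5 reads named first, only the read of 24 nt had the length of an siRNA, and only that of 32 nt had an exact read without the changed end (1 copy).

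Few of the differing reads equalled a sequence elsewhere. None matched another place of its own plasmid. A read with such a match could have been listed there as exact. The authors also mapped reads to TAIR10 to keep off-target reads out. Low counts could thus have been set by the mapping, which was not tested. In SALK_059379, 1 of 3649 equalled pCSA110 and 6 (0.164%, 0.0604 to 0.357) occurred in the TAIR10.1 genome. In SAIL_232, 16 of 324 equalled pROK2 (4.94%, 2.85 to 7.90), 6 of them in the 3′ class, 2 in the 5′ class and 8 with 1 internal change, and 2 occurred in TAIR10.1. Of the exact reads, 10.3% of SALK_059379 (9.94 to 10.7) and 16.9% of SAIL_232 (15.5 to 18.3) also equalled the other plasmid, where the plasmids share sequence. From which insertion or line the 16 reads came was not tested.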

How the data were processed

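The data were small RNA reads of leaves, 1 library for each of SALK_059379 and SAIL_232, both plasmid sequences, and RNA-seq pieces of the same lines. The other samples listed were not analysed here. The authors trimmed adapters, mapped reads to the plasmids with Bowtie2 (2.3.0 in the submitters' processing notes) and the Geneious aligner at a stated setting of no mismatches or gaps, and used a further mapping, to TAIR10, to keep off-target reads out. The sources used here do not say which aligner made the tables. Differing reads are in the tables although that setting would not keep them. The deposited tables list reads without normalization, with bases, strand, first and last position, and both lanes together. How many changed reads the mapping removed is not known, so rates of change describe the listed reads only.

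Reads were counted by their entries (Python 3.11.15), 25606 for SALK_059379 and 3175 for SAIL_232. Values are shares within a library, because the total of sequenced reads was not at hand. Bases are written 5′ to 3′ in the orientation of the RNA, and tokens such as C2018A in that of the plasmid's plus strand where a plasmid position is named. Reads were assigned to elements by their midpoint. Elements were the border repeats, open reading frames, the longest direct repeat of pROK2 (NOSt) and the stretches between them. Shares have exact Clopper-Pearson 95% intervals (scipy 1.17.1). No test was made. Exact matches were searched in TAIR10.1 on both strands. Gapped alignment used Biopython 1.88, and a difference had to occur in at least 5 aligned reads. The classes were tested on simulated reads. Named were every element, every recurrent position, the 5 most frequent differing reads and the most frequent of 21 to 24 nt. Further reads with equal copies were not all named. Read sequences are vector sequence and are not printed. The members and lists were chosen with earlier results of these data known.

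The alternatives were identical reads counted once, reads of 21 to 24 nt, the T-DNA only, masked recurrent positions, removal of reads that match elsewhere or of the most frequent differing read, other runs of changed end bases and the rate over reads where a base can be seen. Those added after the data were seen were the plasmid with the changes of most reads, any change within the last 3 bases, and the 3′ shares and end bases of elements with identical reads counted once, without the most frequent read or on the changed plasmid.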

Additional observations from a re-analysis of the deposited data

How the results depend on the processing

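Of the 91 values computed under alternatives, 50 stayed within the 95% interval of the reported value and 41 moved out of it. Each alternative changed the reads counted, the class definition, the measure or the plasmid sequence, and other causes of the moves were not tested. With identical reads counted once, the differing share was 22.9% (SALK_059379) and 14.1% (SAIL_232), the 3′ share of differing reads 47.1% (SALK_059379), the 3′ changed share of 25 nt reads 49.3%, and the differing share 25.03% in nptII, 23.3% in the backbone before the left border, 8.55% in bar and 21.1% in the stretch with pLAT52, so that nptII was no longer below the backbone. With reads of 21 to 24 nt only, 11.3% and 5.94% differed, and in SALK_059379 the 3′ share was 26.98%, U 57.3% and A 22.4% of changed last bases. On the T-DNA only, SALK_059379 gave 11.3% differing reads and 49.7% at 25 nt. Without the recurrent positions, 11.4% of SALK_059379 reads differed, 51.6% of them at the 3′ end, with 11.4% in the backbone before the left border and 14.5% in the stretch with pLAT52. Without the most frequent differing read, the SALK_059379 3′ share was 48.9% and the backbone share 13.9%. With the last base only, the 3′ share was 38.4% and 43.5%. As a rate where the base can be seen, U was 55.7% and A 14.4% of the summed rates in SALK_059379. On the plasmid with the changes of most reads, chosen after seeing the data, 11.4% and 8.38% differed, with 51.6% and 59.0% of them at the 3′ end. Any change within the last 3 bases, also chosen after seeing the data, gave 45.3% and 56.5%. U exceeded A in both libraries under every alternative run for the changed last base.

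No paired analysis was possible because each line has 1 small RNA library and no result comes from a test. The total of sequenced reads was not at hand, and the SAIL_232 shares rest on 324 differing reads. Reads without molecular identifiers cannot separate repeated copies of 1 molecule from separate RNAs, and an end base that equals the plasmid was not countable as changed.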
